A study of Mus musculus with 12 samples.

Results

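The genes described here are those whose symbols place them among the pre-mRNA splicing and RNA-binding proteins: heterogeneous nuclear ribonucleoproteins (hnRNPs), SR proteins, SF3, Sm, LSm and PRPF proteins, DEAD and DEAH box helicases and RBM proteins. They were taken by the start of the symbol (Hnrnp or Hnrp, Srsf or Sfrs, Sf3, Snrp, Prpf, Lsm, Ddx, Dhx and Rbm, the last 4 followed by a digit), among array probes with a value in every sample and a single gene in the probe table. The rule gave 89 genes of 6427 measured, on 181 spots of cDNA clones. Each spot is counted as a clone here, though Hnrnpa1 and Srsf3 each hold 2 spots of the same clone. Another 32 symbols that match it are on the array but had no clone with values, and 17 further probes with values name several genes of which 1 matches, among them Ddx5, so they were not used. By family there were 18 hnRNP, 7 SR protein, 4 SF3, 13 Sm and LSm, 8 PRPF, 19 DEAD and DEAH box and 20 RBM genes. The rule used no measured difference between genotypes. It also takes in proteins that act outside splicing, such as helicases of ribosome assembly.

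The brains came from 10-day-old C57Bl/6j mice of 3 genotypes, with 4 samples in each: wildtype, Gja9 (-/-), called Gja9_null, and Gja9 (+/-), called Gja9_het. Gja9 is an older name of Gjd2, whose product is the main connexin of electrical synapses between neurons. Total RNA was labelled with Cy5 or Cy3 and hybridised to spotted cDNA arrays, 2 samples of the same genotype to an array, so that each genotype lay on 2 arrays. The question was which brain transcripts differ when Gja9 is lost in full or in part. The labels give no promoter, Cre driver, cell type limit or pooling for the deletion.

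A pre-mRNA is spliced by the spliceosome, which is put together on each intron from small nuclear ribonucleoproteins. The U1, U2, U4 and U5 particles carry a ring of Sm proteins, and U6 carries a related ring of LSm proteins. SF3 proteins help U2 hold the branch point, and PRPF proteins belong mostly to the U4/U6.U5 particle and its rearrangements. DEAD and DEAH box helicases drive many of the steps from assembly to release. SR proteins and hnRNPs bind exons and introns and help decide which splice sites are used, and neurons rely on such choices for the isoforms of channels, receptors and adhesion proteins.

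Values are log2 signals relative to the mean signal of the same sample, and differences are log2 differences between genotypes with their standard error (SE) from limma, over 4 samples on 2 arrays per genotype. An adjusted p is Benjamini-Hochberg adjusted over all 9514 features, and one under 0.05 counted as passing. Levels of different genes are not compared, since each rests on its own probes. The targeted gene could not be read, because 0 probes are named for Gjd2. In whole brain RNA, fewer cells of a type and less RNA per cell cannot be told apart. Gja9_null samples 1 and 2 lie on an array (the first of that genotype) that was far from the other 5 on the first principal component, at 54.6 against -23.3 to 12.6. Of the neuron markers, 6 of 10 listed were measured and 4 lay above the sample median in all 12 samples.

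None of the 89 genes passed in any comparison. In Gja9_null against wildtype, 0 of 89 passed with limma, where 0.326% of all features did, and in Gja9_het against wildtype 0 of 89 passed, where 0% did. In Gja9_null against Gja9_het, 0 of 89 passed, where 0.273% of features did. At an unadjusted p under 0.05, 8 of the 89 were lower and 3 higher in Gja9_null than in wildtype, which is 8.99% and 3.37% against 9.22% and 2.41% of all features. In Gja9_het against wildtype 1 gene, Srsf4, reached that level on the higher side (1.67% of features) and 0 on the lower side (0.515%). An F-test over the 3 genotypes reached it for 8 genes, 8.99% against 10.9% of features. Among other settings, only those that treat the 2 colours of an array as independent or pair them differently passed more than 1 of the 89.

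The median difference of the 89 genes in Gja9_null was -0.11, beside -0.10 for all features, and 29 of 89 were above 0 (32.6%, against 41.1% of features). In Gja9_het the median was 0.01, beside 0.03, with 45 of 89 above 0 (50.6%, against 54.4%). The Gja9_null values ran from -1.83 for Lsm2 to 0.98 for Ddx18, and the Gja9_het values from -0.68 for Hnrnpl to 0.88 for Srsf4. Both comparisons use the same wildtype samples. The 95% interval of the difference lay within 1 log2 unit of 0 for 45 genes in Gja9_null (50.6%, against 38.6% of features) and for 56 in Gja9_het (62.9%, against 51.9%), while for the rest a difference of 1 unit is not excluded by the interval.

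**Figure D1:**
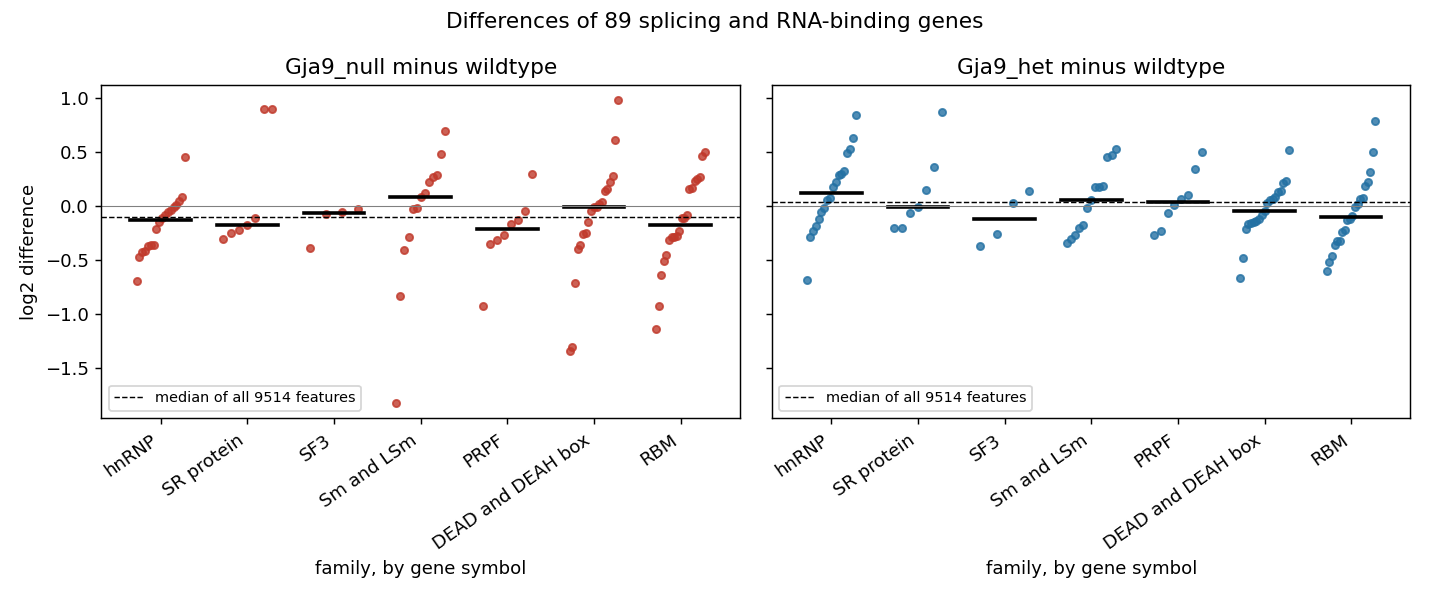
Log2 difference of each of the 89 genes (points) from wildtype in Gja9_null (left) and Gja9_het (right), by family, with the family median (black bar) and the median of all 9514 features (dashed line). Lsm2 at -1.83 and Ddx39a at -1.35 lie lowest on the left, and all Gja9_het values lie between -0.68 and 0.88.

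The samples of the 2 genotypes did not overlap for 12 genes that were lower in all Gja9_null samples than in all wildtype samples (15.6% of features did likewise) and for 9 that were higher (7.52%). The 12 were Hnrnpc, Hnrnpdl, Srsf1, Srsf10, Lsm2, Snrpf, Prpf4b, Ddx39a, Dhx40, Rbm12b1, Rbm14 and Rbm26. The 9 were Hnrnpk, Srsf4, Lsm8, Snrpb, Snrpb2, Ddx18, Dhx30, Rbm17 and Rbm33. In Gja9_het against wildtype, 7 were lower (6.09% of features) and 9 higher (8.67%). Samples that share an array are nearly alike, so such a separation rests on 2 arrays against 2.

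The Sm and LSm genes held the lowest value and one of the higher ones in Gja9_null. Lsm2 and Lsm8 encode subunits of the same ring on U6, and Snrpa1 and Snrpb2 encode the A' and B'' proteins of U2, which bind its RNA together, yet the members of each pair differed from wildtype in opposite directions in Gja9_null. Their promoters are printed for that reason (RefSeq, GRCm38.p6, plus strand, first listed start, 250 bases before to 50 after it), with matches to the SP motif GGGCGG and the NFY motif CCAAT on either strand in capitals.
Lsm2, chr17:34981604-34981903: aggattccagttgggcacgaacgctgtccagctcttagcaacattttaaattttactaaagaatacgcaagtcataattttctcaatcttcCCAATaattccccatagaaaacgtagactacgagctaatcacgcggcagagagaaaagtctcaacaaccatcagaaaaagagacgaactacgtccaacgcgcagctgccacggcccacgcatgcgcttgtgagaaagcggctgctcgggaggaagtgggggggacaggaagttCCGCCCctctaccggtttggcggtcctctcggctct
Lsm8, chr6:18848385-18848684: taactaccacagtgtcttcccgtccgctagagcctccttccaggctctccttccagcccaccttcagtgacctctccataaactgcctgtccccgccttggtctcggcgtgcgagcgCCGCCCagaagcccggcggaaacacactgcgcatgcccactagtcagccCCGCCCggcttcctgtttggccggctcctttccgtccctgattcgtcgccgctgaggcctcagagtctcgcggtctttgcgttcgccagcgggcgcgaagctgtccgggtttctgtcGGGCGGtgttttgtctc
Snrpa1, chr7:66060086-66060385: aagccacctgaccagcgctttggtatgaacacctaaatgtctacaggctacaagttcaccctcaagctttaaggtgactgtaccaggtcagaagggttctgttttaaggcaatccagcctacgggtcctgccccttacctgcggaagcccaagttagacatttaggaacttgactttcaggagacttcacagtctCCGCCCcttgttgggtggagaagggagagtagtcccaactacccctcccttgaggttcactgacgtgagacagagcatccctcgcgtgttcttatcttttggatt
Snrpb2, chr2:143062819-143063118: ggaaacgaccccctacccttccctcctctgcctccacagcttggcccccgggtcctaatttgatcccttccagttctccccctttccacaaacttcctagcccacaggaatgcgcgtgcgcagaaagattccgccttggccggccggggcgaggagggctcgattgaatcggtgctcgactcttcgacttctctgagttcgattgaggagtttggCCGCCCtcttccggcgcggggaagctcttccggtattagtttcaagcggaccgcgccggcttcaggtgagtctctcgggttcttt
Each printed window held the SP letters, at 3 places in Lsm8 and 1 in each of the others, and Lsm2 alone of the 4 held CCAAT. Lsm2 has another listed start, with the window chr17:34981880-34982179. That window held the SP letters from 120, 70 and 2 bases before the start and no CCAAT, so the content for Lsm2 depends on the start taken. A RefSeq promoter was found for 79 of the 89 genes. A gene counted as holding a motif if any of its listed promoters did. Of these genes, 50 held GGGCGG (63.3%, against 70.5% of measured genes and 38.2% of all genes with a RefSeq promoter). CCAAT was in 45 (57%, against 42.7% and 41.1%). The ETS letters CCGGAAGT were in 14 (17.7%, against 9.9% and 4.31%) and TATAAA in 8 (10.1%, against 8.72% and 15.7%). None of these motifs contains another. A match is a description of the letters and not a bound site.

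Lsm2 stood at -0.79, -0.82, -1.02 and -1.08 in the wildtype samples, at -3.22, -3.18, -2.31 and -2.33 in Gja9_null and at -0.85, -0.75, -1.61 and -1.20 in Gja9_het. All Gja9_null samples lay below all others, and the wildtype and Gja9_het samples overlapped. The difference from wildtype was -1.83 ± 0.41 (adjusted p = 0.0859) and that from Gja9_het -1.65 ± 0.41 (adjusted p = 0.0948), the smallest adjusted p of the 89 genes in each comparison. It passed at 0.042 without a dye term and at 0.0479 without Gja9_het replicate 3. Lsm2 rests on 1 clone, so no second one could be compared.

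Lsm8, which sets the U6 ring apart from the cytoplasmic LSm ring of mRNA decay, stood at -0.02, -0.04, -0.05 and -0.30 in wildtype, at 0.92, 0.63, 0.47 and 0.34 in Gja9_null and at -0.27, -0.33, -0.38 and -0.53 in Gja9_het. The Gja9_null samples lay above both other genotypes. Its differences were 0.69 ± 0.29 from wildtype (adjusted p = 0.38) and 0.96 ± 0.29 from Gja9_het (adjusted p = 0.157). The other measured genes of the LSm rings, Lsm3 and Lsm7, differed by 0.12 ± 0.27 and -0.29 ± 0.37.

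Snrpa1 stood at 0.17, -0.01, -0.55 and -0.45 in wildtype, at -0.28, -0.53, -1.65 and -1.70 in Gja9_null and at 0.49, 0.28, 0.37 and 0.13 in Gja9_het. The Gja9_null samples lay below all Gja9_het samples and overlapped wildtype, and the Gja9_null arrays were far apart. Its difference was -0.83 ± 0.41 from wildtype (adjusted p = 0.457) and -1.36 ± 0.41 from Gja9_het (adjusted p = 0.156). Without the first Gja9_null array the latter was -1.99 and passed (adjusted p = 0.0292), the only one of the 89 to do so (1.12%, against 0.999% of features).

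Snrpb2 stood at -1.17, -1.23, -0.93 and -1.09 in wildtype, at -0.65, -0.66, -0.55 and -0.65 in Gja9_null and at -1.18, -1.28, -0.61 and -0.66 in Gja9_het. Its 3 clones all lay above wildtype in Gja9_null, between 0.31 and 0.57, and their mean differed by 0.48 ± 0.27 (adjusted p = 0.537). Among the Sm ring genes, Snrpb differed by 0.27 ± 0.28, Snrpd1 by -0.03 ± 0.36, Snrpe by 0.22 ± 0.34, Snrpf by -0.41 ± 0.27 and Snrpg by 0.29 ± 0.36. Lsm14a and Lsm14b, whose proteins belong to cytoplasmic mRNA granules rather than to a spliceosomal ring, differed by -0.02 ± 0.30 and 0.09 ± 0.33. The family median was 0.09 in Gja9_null and 0.06 in Gja9_het.

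**Figure D2:**
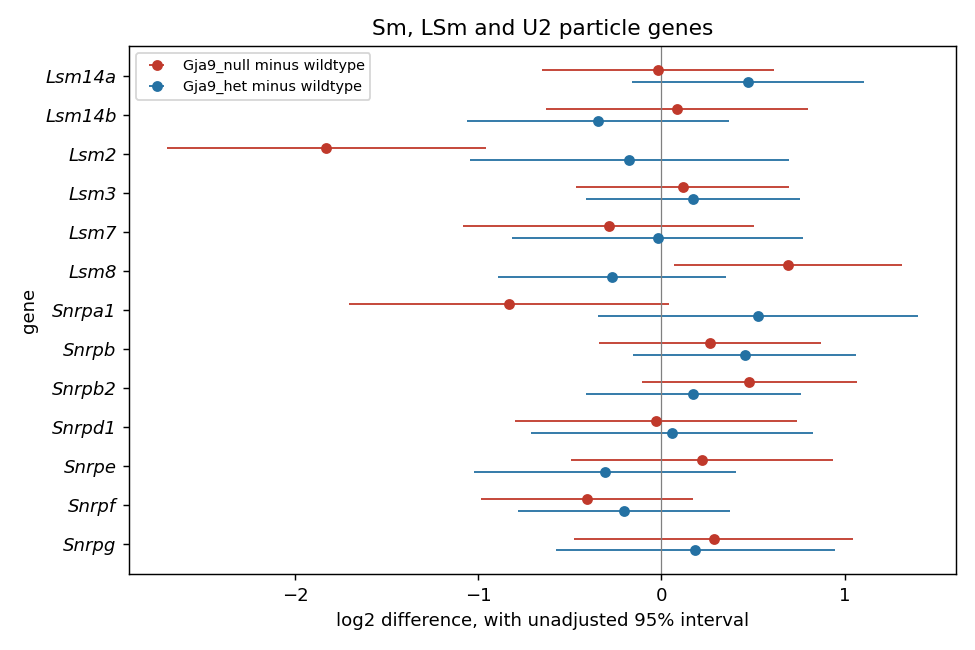
Log2 difference from wildtype of the 13 Sm, LSm and U2 particle genes in Gja9_null (red) and Gja9_het (blue), as points with unadjusted 95% intervals. The Gja9_null intervals of Lsm2 (-2.70 to -0.96) and Lsm8 (0.07 to 1.32) leave out 0 on opposite sides, and neither gene passed after adjustment.

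The DEAD and DEAH box genes, whose products unwind or remodel RNA with ATP, had a median of -0.01 in Gja9_null and -0.04 in Gja9_het. In that order 11 and 10 of 19 were below 0, beside 5606 and 4336 of all 9514 features. Ddx39a, a helicase of mRNA splicing and export, stood at -0.62, -0.57, -0.32 and -0.29 in wildtype, at -1.96, -2.18, -1.51 and -1.53 in Gja9_null and at -0.43, -0.35, -0.72 and -0.77 in Gja9_het. Every Gja9_null sample lay below every other sample. The difference was -1.35 ± 0.32 from wildtype (adjusted p = 0.107) and -1.23 ± 0.32 from Gja9_het (adjusted p = 0.108). Its single clone has one of the highest probe numbers, within the last 3 when the numbers are divided into 48 stretches, and clones there are described further on.

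Dhx40, a DEAH box helicase, stood at -1.99, -1.87, -2.46 and -2.44 in wildtype, at -4.08, -4.05, -3.00 and -2.85 in Gja9_null and at -2.23, -2.18, -2.53 and -2.39 in Gja9_het. The Gja9_null samples again lay below all others, with the first array lower than the second. The difference was -1.30 ± 0.35 from wildtype (adjusted p = 0.161), with its 2 clones at -1.42 and -1.19. Ddx18, a helicase of ribosome biogenesis, had the highest difference of the 89, 0.98 ± 0.59 (adjusted p = 0.562), from wildtype values of -1.94, -2.14, -1.78 and -1.95 and Gja9_null values of -0.35, -1.26, -1.18 and -1.10.

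Dhx32 was the DEAH box gene of smallest unadjusted p in Gja9_het, with a difference of -0.67 ± 0.39 from wildtype and, for Gja9_null against Gja9_het, of 0.95 ± 0.39 (adjusted p = 0.274). It stood at -3.11, -2.91, -3.78 and -3.95 in Gja9_het and at -2.56, -2.50, -3.06 and -2.94 in wildtype, and these overlapped. In Gja9_null, Dhx32 differed from wildtype by 0.28 ± 0.39. Its only clone was also among the dimmest 25% of probes. Of the helicases of the splicing cycle itself, Dhx15, which releases the intron lariat, differed by -0.15 ± 0.46, Dhx8 by -0.40 ± 0.54 and Dhx38 by -0.36 ± 0.35. Ddx3x, a helicase of translation, differed by -0.25 ± 0.35, and Ddx17, a cofactor of splicing and transcription, by 0.22 ± 0.27.

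Of the 8 PRPF genes, 7 lay below wildtype in Gja9_null, with a median of -0.21, while in Gja9_het 3 lay below it and the median was 0.04. Of all 9514 features, 5606 lay below wildtype in Gja9_null and 4336 in Gja9_het. Prpf4b, the kinase of this family, stood at -1.59, -1.63, -1.12 and -0.96 in wildtype, at -2.12, -2.21, -2.27 and -2.43 in Gja9_null and at -1.49, -1.37, -1.37 and -1.34 in Gja9_het. Its Gja9_null samples lay below all others, and the difference from wildtype was -0.93 ± 0.32 (adjusted p = 0.283). Its 2 clones differed, at -1.73 for the one in the last stretches of probe numbers and -0.13 for the other. The clone at -0.13 was among the dimmest 25% of probes.

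The remaining PRPF genes were within 1 SE of wildtype in Gja9_null. Prpf8, the scaffold of the catalytic centre, differed by -0.27 ± 0.39, Prpf31 by -0.16 ± 0.30, Prpf19, a ubiquitin ligase of the spliceosome, by -0.04 ± 0.40 and Prpf3 by -0.35 ± 0.40. Prpf3 differed by 0.50 ± 0.40 in Gja9_het. All 4 SF3 genes had small differences in both genotypes. Sf3b1, which clasps the branch point helix, differed by -0.39 ± 0.29 in Gja9_null and -0.38 ± 0.29 in Gja9_het, and Sf3b2, Sf3b3 and Sf3b6 by -0.07 ± 0.43, -0.03 ± 0.29 and -0.05 ± 0.32 in Gja9_null.

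The hnRNP genes had a median of -0.13 in Gja9_null, with 14 of 18 below 0, and of 0.12 in Gja9_het, with 7 of 18 below 0. The counts below 0 over all 9514 features were 5606 and 4336. Hnrnpc, whose protein binds uridine tracts of nascent transcripts, stood at -0.86, -0.90, -0.76 and -0.59 in wildtype, at -1.45, -1.57, -1.46 and -1.42 in Gja9_null and at -0.43, -0.52, -0.42 and -0.44 in Gja9_het. The 3 genotypes did not overlap, with Gja9_null lowest and Gja9_het highest. Its difference in Gja9_null was -0.70 ± 0.29 from wildtype (adjusted p = 0.37) and -1.02 ± 0.29 from Gja9_het (adjusted p = 0.136), and its clones gave -1.10 and -0.30 against wildtype. The clone at -0.30 was among the dimmest 25% of probes.

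Hnrnph1 and Hnrnph2, paralogs that bind guanine tracts, were, after Srsf4, the genes above wildtype with the smallest unadjusted p in Gja9_het, at 0.85 ± 0.48 and 0.63 ± 0.30 (adjusted p = 1 for both). Hnrnph2 stood at 1.10, 1.15, 0.37 and 0.51 in wildtype, at 0.44, 0.56, 0.82 and 1.07 in Gja9_null and at 1.27, 1.48, 1.41 and 1.49 in Gja9_het, which lay above both. Its 3 clones lay above wildtype in Gja9_het, between 0.13 and 0.91. The 2 clones of Hnrnph1 went opposite ways, at 2.27 and -0.57 in Gja9_het and at 1.14 and -1.87 in Gja9_null, so their mean describes neither. The higher of these clones was among the dimmest 25% of probes. Whether spots of these paralogs bind each other's transcripts was not tested.

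Hnrnpl, a regulator of exon skipping, had the lowest Gja9_het difference, -0.68 ± 0.41. It stood at 0.04, 0.32, 0.49 and 0.69 in wildtype, at -0.20, -0.36, -0.19 and -0.44 in Gja9_het and at 0.11, 0.25, -0.17 and -0.13 in Gja9_null. The Gja9_het samples lay below all samples of the other genotypes. Of the abundant hnRNPs in Gja9_null, Hnrnpa1 differed from wildtype by -0.42 ± 0.38, Hnrnpa2b1 by -0.48 ± 0.31, with all 4 clones below 0, Hnrnpu by -0.08 ± 0.27 and Hnrnpk by 0.45 ± 0.31.

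Among SR proteins, which promote the use of exons they bind, 5 of 7 lay below wildtype in Gja9_null (5606 of 9514 features did) with a median of -0.18. The other two, Srsf9 and Srsf4, lay above it. Srsf9 stood at -0.89, -1.17, -0.14 and -0.28 in wildtype, at 0.77, 0.61, -0.08 and -0.19 in Gja9_null and at -1.04, -1.24, -0.43 and -0.59 in Gja9_het. The second Gja9_null array overlapped the second wildtype array, and the difference of 0.90 ± 0.35 (adjusted p = 0.345) came mostly from the first arrays, being 0.48 without the first Gja9_null array. Against Gja9_het, which did not overlap, it was 1.10 ± 0.35 (adjusted p = 0.178).

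Srsf4 stood at -0.63, -0.66, -1.82 and -1.55 in wildtype, at -0.42, -0.44, -0.18 and -0.04 in Gja9_null and at -0.37, -0.46, -0.25 and -0.09 in Gja9_het. The wildtype arrays were far apart, and both other genotypes lay above them and overlapped each other. The difference was 0.90 ± 0.38 in Gja9_null (adjusted p = 0.38) and 0.88 ± 0.38 in Gja9_het (adjusted p = 1). Srsf1, Srsf2 and Srsf3, the most studied SR proteins, differed in Gja9_null by -0.31 ± 0.30, -0.18 ± 0.32 and -0.22 ± 0.25. The 3 clones of Srsf1 gave between -0.34 and -0.29.

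**Figure D3:**
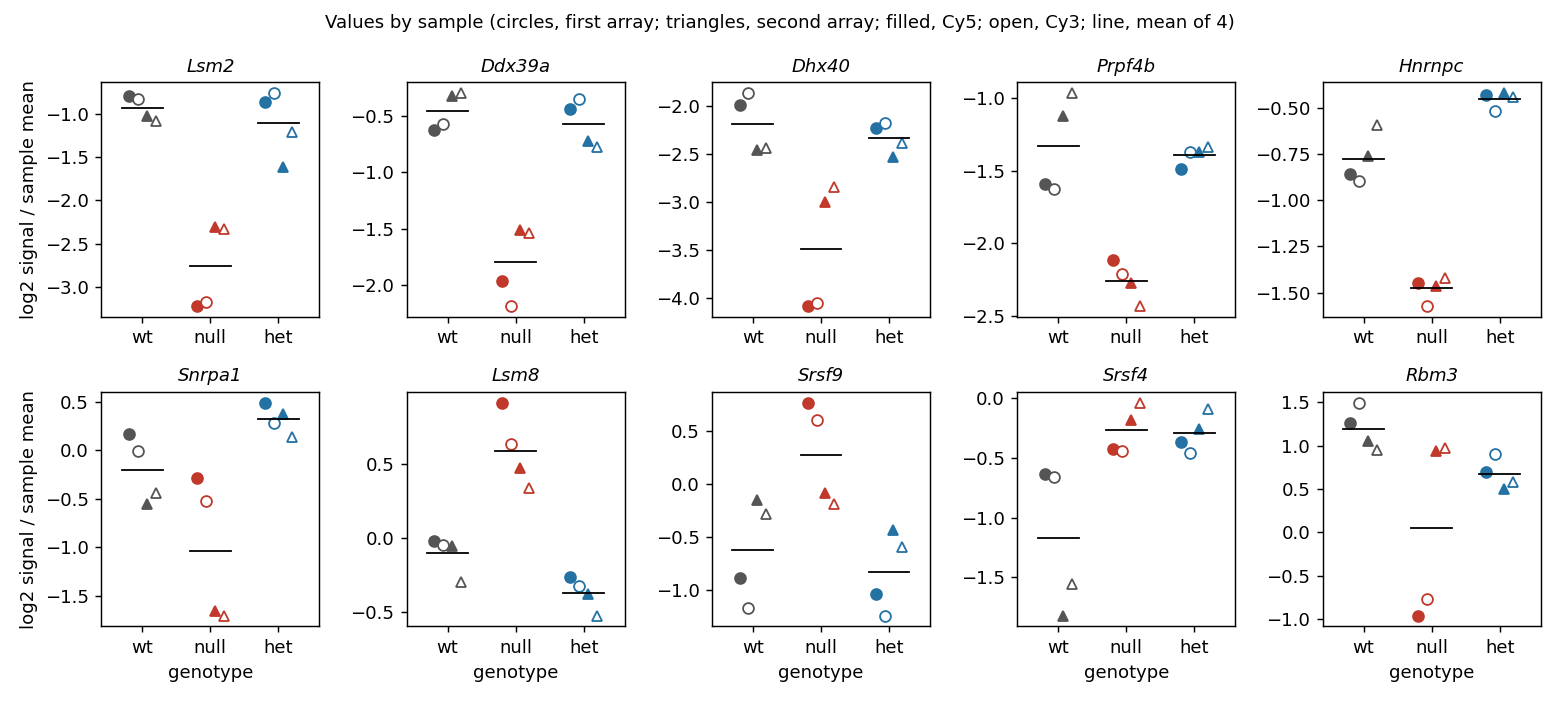
Log2 signal relative to the sample mean of 10 genes in each of the 12 samples (circles, first array of a genotype; triangles, second; filled, Cy5; open, Cy3; line, mean of 4). Filled and open symbols of an array lie close together, and Lsm2, Ddx39a, Dhx40, Prpf4b and Hnrnpc have all Gja9_null samples below all others, while Rbm3 and Srsf9 are split by array.

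The RBM genes, named for their RNA-binding motif, had a median of -0.17 in Gja9_null and -0.11 in Gja9_het. In that order 13 and 12 of 20 were below 0, beside 5606 and 4336 of all 9514 features. Rbm3, a cold-induced protein of neurons and dividing cells, stood at 1.26, 1.49, 1.06 and 0.95 in wildtype, at -0.96, -0.77, 0.93 and 0.98 in Gja9_null and at 0.70, 0.90, 0.49 and 0.58 in Gja9_het. The first Gja9_null array was low and the second overlapped wildtype, so that the difference of -1.14 ± 0.46 (adjusted p = 0.363) rests on 1 array, and it was -0.23 without that array. The Gja9_het samples lay below all wildtype samples, by -0.52 ± 0.46.

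Rbm14, a coactivator that also affects splicing, stood at -0.76, -0.69, -0.96 and -1.05 in wildtype, at -2.30, -2.14, -1.28 and -1.42 in Gja9_null and at -1.08, -1.08, -1.86 and -1.85 in Gja9_het. Both other genotypes lay below wildtype, by -0.92 ± 0.36 (adjusted p = 0.345) and -0.60 ± 0.36 (adjusted p = 1). All 3 clones had that sign in both comparisons, between -1.14 and -0.56 in Gja9_null and between -1.54 and -0.10 in Gja9_het. Rbm33 lay above wildtype without overlap in both, by 0.50 ± 0.29 and 0.31 ± 0.29. Rbm5, a regulator of exons of cell death genes, differed by -0.08 ± 0.36 and -0.47 ± 0.36, and Rbm39 by -0.45 ± 0.36 and 0.18 ± 0.36.

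In Gja9_null against Gja9_het, the differences of the 89 genes had a median of -0.09, beside -0.17 for all features, with 32 of 89 above 0 (36.9% of features), and ran from -1.65 (Lsm2) to 1.14 (Ddx18). At an unadjusted p under 0.05, 9 were lower and 3 higher, against 11.3% and 3.64% of features. The groups did not overlap for 23 lower and 12 higher genes, against 22.5% and 10.2% of features. Of the hnRNP genes, 14 of 18 were below 0 with a median of -0.28. This comparison shares its Gja9_null samples with the first.

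Among RNA-binding and splicing genes outside the symbol rule, 63 of 106 listed were measured, and 0 passed with limma in any comparison. In Gja9_null against wildtype, 1 was higher and 2 lower at an unadjusted p under 0.05 (1.59% and 3.17%, against 2.41% and 9.22% of all features), and the median was -0.02. Celf2, a regulator of neuronal exons, differed by 0.88 ± 0.32 (adjusted p = 0.324), and by 0.20 with the highest of its 3 clones. U2af2, which binds the polypyrimidine tract, differed by -0.82 ± 0.35, and Mbnl1, a regulator of developmental exons, by -0.60 ± 0.27. After centring on neighbouring probe numbers, as described further on, these were -0.0039 and -0.34. Usp39, of the U4/U6.U5 particle, differed by -1.38 ± 0.42 between Gja9_null and Gja9_het (adjusted p = 0.159), and Eftud2, a GTPase of U5, by 0.81 ± 0.32. The former was -0.73 without the first Gja9_null array, and the latter 0.26 after the same centring. Rbfox2, a neuronal splicing regulator, differed by 1.43 ± 0.68 in Gja9_het, with wildtype values of -0.42, -0.38, -3.06 and -2.54.

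Clones of the same gene often disagreed. Of the 49 genes with at least 2 clones, 27 of which have 3 or more, all clones had the same sign for 18 in Gja9_null and 17 in Gja9_het. The same count was not made over all features, and unrelated signs would match for part of the genes. In Hnrnpa1 and Srsf3, the 2 spots of the same clone differed by a median of 1.02 in Gja9_null. For 155 pairs of different clones the median was 0.38, so spots of 1 clone can differ too. The range between a gene's clones had a median of 0.67 in Gja9_null and 0.50 in Gja9_het. The median size of the gene differences of the 89, of which 40 have 1 clone, was 0.27 and 0.20. A range over clones and the size of their mean are unlike measures, and were not tested against each other. Sf3b1, with 5 clones, showed such disagreement most plainly among the core factors: 1 clone gave -1.55 in Gja9_null and the other 4 between -0.46 and 0.15.

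That Sf3b1 clone, like the lower clones of Prpf4b, Hnrnpc and Dhx40, lies in the last 3 stretches of probe numbers. For Prpf4b and Hnrnpc the other clone was among the dimmest 25% of probes, as were both clones of Dhx40. Position and brightness therefore both differ between the clones of Prpf4b and of Hnrnpc. Of 7 genes with a clone in those stretches and another elsewhere, 4 had their lowest Gja9_null difference there and 3 (Hnrnph2, Lsm14a and Rbm7) did not. In Gja9_het, 3 of the 7 had their lowest difference there. The same count was not made over all features. The median was -1.10 for the clones there and -0.10 for the genes' other clones in Gja9_null, against 0.04 and -0.10 in Gja9_het. In all, 8 of the 89 genes (8.99%) had a clone there, against 9.53% of features.

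**Figure D4:**
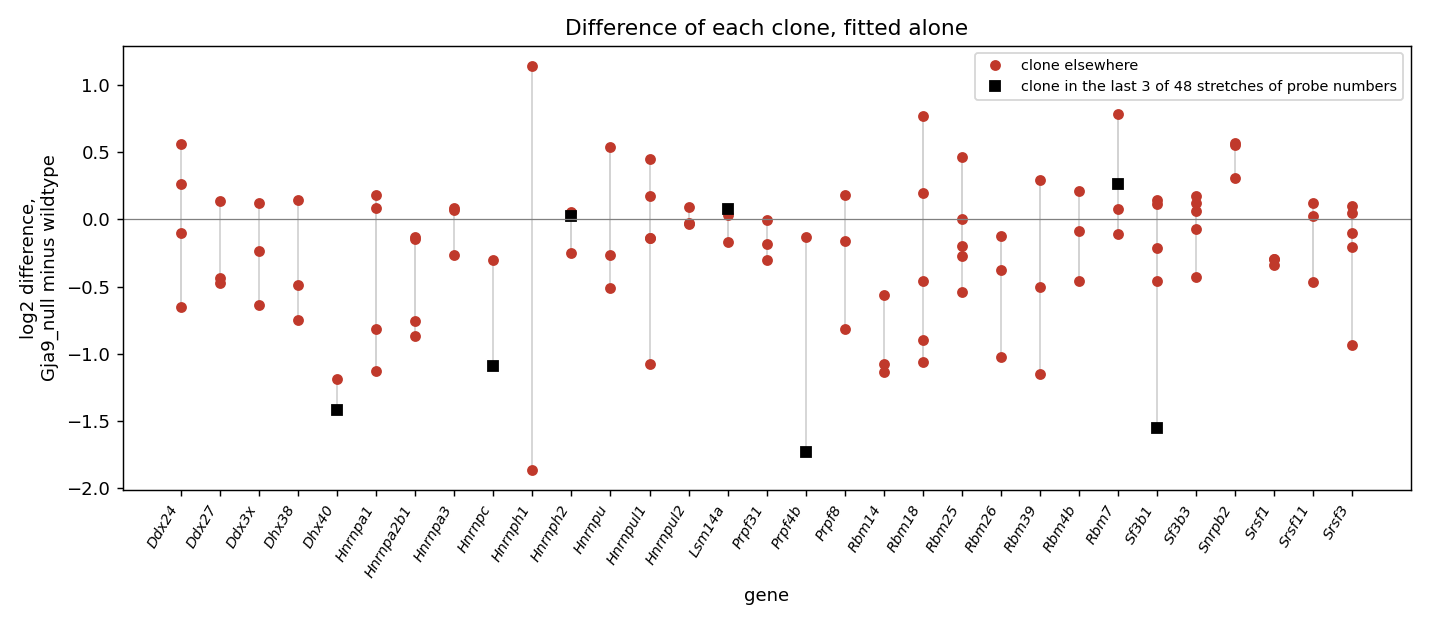
Log2 difference from wildtype in Gja9_null of every clone of 31 genes, each clone fitted alone (red circles; black squares, clones in the last 3 of the 48 stretches; grey lines join clones of a gene). The squares of Sf3b1, Prpf4b and Hnrnpc lie well below the other clones of those genes, and the clones of Hnrnph1 lie at 1.14 and -1.87.

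Differences along the probe numbers bear on the leading genes. When each sample was centred on the median deviation of the 50 probe numbers on either side, Lsm2 differed from wildtype by -0.70 in Gja9_null (adjusted p = 0.21), Ddx39a by -0.02 (adjusted p = 0.967), Dhx40 by -0.21 and Prpf4b by -0.31. Against Gja9_het the Ddx39a difference turned from -1.23 to 0.22, while that of Lsm2 was -0.59 and that of Dhx40 -0.22. Sf3b1 turned from -0.39 to 0.10 against wildtype. Hnrnpc then differed by -0.40, Rbm3 by -0.41, Srsf9 by 0.67 and Lsm8 by 0.38. The number of genes beyond 1 log2 unit went from 4 to 0 in Gja9_null against wildtype and from 9 to 0 in Gja9_null against Gja9_het. The sign stayed for 69 of 89 genes in Gja9_null, and 0 passed, where 0.242% of features passed as lower and 0.347% as higher. After this centring 0 of the 89 passed in Gja9_het either (0% of features lower and 0.0105% higher), nor in Gja9_null against Gja9_het (0.935% and 0.473%).

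**Figure D5:**
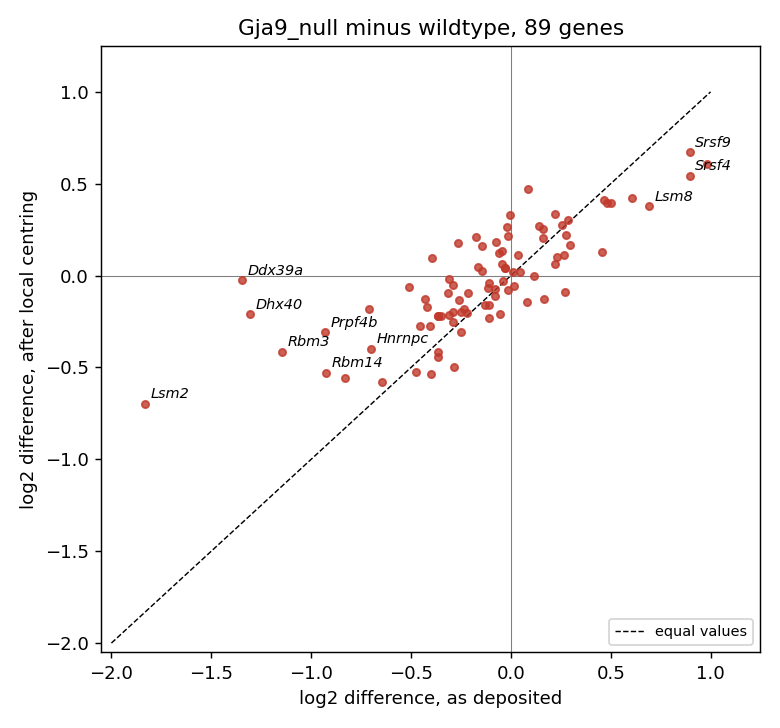
Log2 difference of the 89 genes between Gja9_null and wildtype, from the deposited values (x axis) and after local centring on neighbouring probe numbers (y axis), with the line of equal values dashed. Ddx39a moves from -1.35 to -0.02 and Lsm2 from -1.83 to -0.70, and the whole range narrows from -1.83 to 0.98 to -0.70 to 0.67.

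The spread between arrays of a genotype was of the same order as the differences. Over the 89 genes, the 2 wildtype arrays differed by a median of 0.31 in size, those of Gja9_null by 0.32 and those of Gja9_het by 0.15, where all features gave 0.36, 0.43 and 0.28. The difference between genotypes was larger than both genotypes' own array gaps for 22 genes in Gja9_null against wildtype (24.7%, against 22.7% of features), 18 in Gja9_het against wildtype (20.2%, against 17%) and 35 in Gja9_null against Gja9_het (39.3%, against 32.5%).

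Of the markers of cell types in brain, 0 passed with limma in any comparison, and their levels are given as log2 of the summed signal of each list. The 6 of 10 neuron markers summed to between 4.51 and 4.67 in wildtype, 3.87 and 4.81 in Gja9_null and 4.44 and 4.71 in Gja9_het, and 5 of the 6 were below 0 in Gja9_null against wildtype, with a median of -0.39 and 1 at an unadjusted p under 0.05. The 3 of 7 astrocyte markers summed to between 2.71 and 3.30, 3.48 and 3.79, and 2.91 and 3.32 in that order. Their genes went opposite ways, from -0.24 to 1.66 in Gja9_null (2 of 3 above 0, both at an unadjusted p under 0.05) and from -0.49 to 1.75 in Gja9_het (1 of 3 above 0). The ranges of the 2 of 6 oligodendrocyte markers were 3.69 to 4.10, 2.66 to 3.78 and 3.06 to 3.94, and overlapped. Those of the 3 of 6 microglia markers were 1.20 to 1.77, 0.73 to 1.34 and 1.79 to 1.97. The 4 of 6 proliferation markers summed to between 0.52 and 0.86, 0.86 and 1.08, and 1.07 and 1.20. At an unadjusted p under 0.05, 1 of them was higher in Gja9_null, and 1 of them and 1 astrocyte marker in Gja9_het. The 3 of 6 erythroid markers summed to between 3.05 and 3.94, 3.61 and 3.96, and 3.10 and 3.75, with 1 lower at that level in Gja9_null. Of all features, 9.22% were lower and 2.41% higher at that level in Gja9_null, and 0.515% and 1.67% in Gja9_het. The part of these markers in the values of the 89 genes was not tested.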

How the data were processed

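The deposited log2 values were used unchanged (the authors' background and dye correction: not given in the sources used here), since 2 to the power of the value averaged 1 in each sample and sample medians lay between -0.98 and -0.81. Of 28704 probes, 13443 had values in all 12 samples. Total RNA was extracted with Trizol and 60 micrograms labelled per sample, per the labels' protocols. Dyes follow the label field, which the labelling protocol contradicts for wildtype 3 and Gja9_null 1. Clones of a gene were averaged, and probes with several genes or none were tested alone (9514 features).

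Array partners are not in the labels and were read from the values. In each genotype the difference between samples 1 and 3 correlated with that between samples 2 and 4 (0.940, 0.933 and 0.919 across probes), so samples 1 and 2, and 3 and 4, were taken to share arrays. The labels do not state separate animals, so p-values measure the spread between these samples. The number of arrays limits the precision. Differences were fitted with limma 3.58.1 in R 4.3.3 (lmFit, eBayes, two-sided) to all samples with terms for genotype and dye and a random block for array (consensus correlation 0.927), and Benjamini-Hochberg adjustment. The fit was tested on simulated data.

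The genes and lists were chosen with earlier results of these data known. Named genes are those passing, the 5 higher and 5 lower of smallest p per comparison, 2 per family by F-test, textbook members, those with 3 or more clones, and 3 per comparison from the list of other splicing genes. Genes listed for not overlapping, and the remaining ring, granule and helicase genes, were named after their values were seen. Promoters come from RefSeq (GRCm38.p6). Figures were made with Python 3.11.15. Alternatives covered the array block, pairing, dye, normalization, clones, dim probes and left-out samples.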

Additional observations from a re-analysis of the deposited data

Results flagged for a closer look

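In 3 of 177 groups of 4 samples, 1 sample of a named gene lay far from the other samples of its genotype. Chance gives about 1 in 20 for independent samples, but these share arrays in pairs, so that rate does not apply directly. Lsm8 stood at -0.30 in wildtype 4, and the other wildtype samples lay between -0.05 and -0.02. Snrpb2 stood at -0.55 in Gja9_null 3, and the others lay between -0.66 and -0.65. Prpf3 stood at -0.63 in Gja9_het 1, and the others lay between -0.75 and -0.73.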

How the results depend on the processing

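The count of genes passing in Gja9_null against wildtype, 0 of 89, became 13 with no array block (14.6%, against 15.4% of all features), 65 with the other array pairing (73%, against 74.9%, at a consensus correlation of -0.908) and 13 with the replicate number as a block in place of the array (14.6%, against 18.6%). It became 1 (Lsm2) with no dye term (1.12%, against 0.389%) and 1 (Lsm2) at an adjusted p under 0.10, where 56 of all features passed. In Gja9_het against wildtype it became 57 with the other pairing (64%, against 60.4%) and 1 (Dhx32) with the replicate block (1.12%, against 1.42%). In Gja9_null against Gja9_het it became 21 with no array block (23.6%, against 22.3%), 63 with the other pairing (70.8%, against 79.3%) and 22 with the replicate block (24.7%, against 26.2%). There it was 1 (Snrpa1) without the first Gja9_null array (1.12%, against 0.999%). At an adjusted p under 0.10 it was 1 (Lsm2), where 119 of all features passed. Same-numbered samples of different genotypes correlated between -0.09 and 0.23 in their deviations, and other pairs between -0.22 and 0.16, so the numbers were not taken to pair samples. On array means 0 of 89 passed in each comparison, where 0.021% of features passed in Gja9_null against wildtype and 0% in the other comparisons. With the dimmest 25% of probes left out, 79 of the genes remained and 0 passed in each comparison. There 0.0946% of features passed in Gja9_null against wildtype and 0% in the other comparisons. The median difference in Gja9_null against wildtype was -0.033 with median centring, -0.017 with quantile normalization, -0.020 with cyclic loess, -0.052 with local centring and -0.054 with the highest clone of each gene. In Gja9_null against Gja9_het it was 0.021 with median centring, 0.028 with quantile normalization, 0.012 with cyclic loess and -0.029 with the highest clone. Leaving out 1 sample at a time gave counts of 0 to 1 (1 being Lsm2, without Gja9_het replicate 3, 1.12% against 0.221% of features), 0 to 0 and 0 to 0, and medians of -0.12 to -0.08, -0.01 to 0.03 and -0.12 to -0.07, for Gja9_null and Gja9_het against wildtype and Gja9_null against Gja9_het. The cause of these shifts was not tested. For 59 named genes, 4368 of 4764 alternative values kept their sign and their side of the threshold, 190 that did not pass turned sign and 206 newly passed. No named gene passed in the main fit, so no passing value could be reversed. The 206 came from the fits with no array block, the other pairing or the replicate block. The exceptions were Lsm2 with no dye term or without Gja9_het replicate 3, and Snrpa1 without the first Gja9_null array. The deposited values hold no background reading, so how far a spot stood above it is unknown.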
